A study of Mus musculus with 9 samples.

Results

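The genes described here are the oxygen-sensing transcription factor HIF-1, the enzymes that switch it off and 3 of its targets, measured in CD8 T cells activated with the mirror-image metabolites D-2HG and L-2HG. The 10 genes were taken by symbol from a table of 55011 genes, and each symbol was found. They are the HIF subunits Hif1a and Arnt, the HIF prolyl hydroxylases Egln1, Egln2 and Egln3, the HIF asparaginyl hydroxylase Hif1an, the ubiquitin ligase subunit Vhl, and the HIF targets P4ha1, Fam162a and Bnip3. Of these, 9 passed the filter on low counts and were tested, and Egln3 did not pass it.

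The cells were naive CD8 T cells from the spleen of wild-type mice, activated for 6 h by plate-bound antibodies to CD3 and CD28 (4 µg/mL). The groups were cells given 20 mM D-2HG when the stimulus began, cells given 20 mM L-2HG at that same time, and control cells that were activated in the same way with neither compound. Each group had 3 libraries, and no unstimulated cells were analysed. Whether the libraries of a group stem from separate animals or cultures is not stated, and p-values here reflect only the spread among the libraries at hand, which may be technical.

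HIF-1 is a pair of proteins, an alpha subunit encoded by Hif1a that is destroyed when oxygen is plentiful and a partner encoded by Arnt that is not. Prolyl hydroxylases use oxygen, iron and 2-oxoglutarate to hydroxylate the alpha subunit, the VHL ubiquitin ligase binds the hydroxylated protein, and the proteasome degrades it, so that this control acts on the protein and not on the Hif1a transcript. 2-hydroxyglutarate (2HG) resembles 2-oxoglutarate, and its D and L forms are mirror images, opposite at the carbon with the hydroxyl group. In T cells, signals from the antigen receptor also raise HIF-1, which drives genes of glucose uptake and glycolysis. RNA counts do not measure the HIF-1 protein or the activity of its hydroxylases.

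HIF-1 binds DNA at the core letters ACGTG or GCGTG, the hypoxia response element. These letters were searched on both strands in the 250 bases before each gene's RefSeq start, on build GRCm38.p6. Of all 32851 such windows in mouse, 38.6% held at least 1 match, 16.6% held ACGTG and 28.2% held GCGTG. The first window of 8 of the 10 genes held a match, and those of Vhl and Hif1an held none. Both cores contain CG, and G and C made up 50.8% to 86.0% of these first windows. The shares over all windows were not matched for this, so they do not show an excess of matches. The sequences below are those of the 3 genes called with D-2HG and of the 3 HIF prolyl hydroxylases, from RefSeq, 5′ to 3′ on the strand of the gene and without bases that lie in annotated exons of these genes. Capitals mark the core letters or, where the match is on the other strand, their reverse complements CACGT and CACGC. The windows are chr12:73907617-73907866 (plus strand) for Hif1a, chr3:95434140-95434387 (plus) for Arnt, chr16:36071595-36071811 (minus) for Fam162a, chr8:124949325-124949504 (minus) for Egln1, chr7:27166803-27167052 (minus) for the first start of Egln2 and chr12:54203875-54204124 (minus) for Egln3.
Hif1a: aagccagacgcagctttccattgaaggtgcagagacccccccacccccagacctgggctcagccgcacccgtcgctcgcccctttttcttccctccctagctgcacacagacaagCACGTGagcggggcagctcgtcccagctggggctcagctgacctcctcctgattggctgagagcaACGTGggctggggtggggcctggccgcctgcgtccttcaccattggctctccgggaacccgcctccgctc
Arnt: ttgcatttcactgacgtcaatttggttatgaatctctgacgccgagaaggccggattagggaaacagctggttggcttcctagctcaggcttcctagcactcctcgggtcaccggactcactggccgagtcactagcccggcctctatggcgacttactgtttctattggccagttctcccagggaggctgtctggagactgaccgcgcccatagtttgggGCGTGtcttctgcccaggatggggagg
Fam162a: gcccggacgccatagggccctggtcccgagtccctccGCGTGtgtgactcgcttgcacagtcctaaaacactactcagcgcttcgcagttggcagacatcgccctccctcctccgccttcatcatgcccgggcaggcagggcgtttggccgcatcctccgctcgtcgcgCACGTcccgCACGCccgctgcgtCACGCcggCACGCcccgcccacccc
Egln1: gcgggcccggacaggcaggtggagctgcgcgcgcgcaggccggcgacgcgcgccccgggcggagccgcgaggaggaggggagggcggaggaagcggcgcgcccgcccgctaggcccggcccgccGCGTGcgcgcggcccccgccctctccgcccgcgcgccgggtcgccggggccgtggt
Egln2: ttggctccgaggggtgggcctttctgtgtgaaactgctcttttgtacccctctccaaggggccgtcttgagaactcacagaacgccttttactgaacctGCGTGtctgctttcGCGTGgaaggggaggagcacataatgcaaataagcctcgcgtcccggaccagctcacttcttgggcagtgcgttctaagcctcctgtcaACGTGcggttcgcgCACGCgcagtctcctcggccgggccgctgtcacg
Egln3: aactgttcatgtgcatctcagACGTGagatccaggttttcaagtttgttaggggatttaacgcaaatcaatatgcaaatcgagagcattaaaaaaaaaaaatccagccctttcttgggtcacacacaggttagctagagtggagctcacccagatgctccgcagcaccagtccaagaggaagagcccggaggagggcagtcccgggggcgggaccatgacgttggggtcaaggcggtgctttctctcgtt
Fam162a held 6 matches in its whole window, 5 of them in the part shown, and Arnt held 1. Hif1a held 3, of which a pair share the palindrome CACGTG that reads the same on both strands. Egln1 held 2, with 1 in the part shown, the first start of Egln2 held 4 and Egln3 held 1. P4ha1 and Bnip3, not shown, held 3 and 5. A match describes letters only and shows no binding.

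The libraries held 562627 to 5731885 counts, the fewest in L-2HG replicate 2, and values are given as CPM, the counts per 1000000 of the TMM-scaled total of the tested genes, which held 97.0% to 99.2% of a library's counts. The 5 markers of CD8 T cells were all measured and summed to 2087 to 2442 CPM with D-2HG, 1895 to 2745 with L-2HG and 2593 to 4244 in control. The 5 B cell markers summed to 134 to 135 CPM with D-2HG, 134 to 195 with L-2HG and 175 to 317 in control, and NK cell, neutrophil and erythroid markers to at most 7.27 CPM in any library. Sums were 13.1 to 16.5 CPM with D-2HG, 11.8 to 16.8 with L-2HG and 9.69 to 11.8 in control for CD4 T cell markers, and 22.7 to 38.8 CPM with D-2HG, 23.7 to 31.4 with L-2HG and 14.5 to 23.2 in control for dendritic cell markers. Most of the CD4 sum was Cd40lg, with means of 12.9 CPM with D-2HG, 13.5 with L-2HG and 8.72 in control. Cd4 itself had at most 1.38 CPM in a library. Most of the dendritic cell sum was Xcr1 and Zbtb46, and Flt3 and Itgax were near the limit of detection. Macrophage and monocyte markers summed to at most 9.51 CPM, the neutrophil marker S100a8 had no count with D-2HG or in control, Ly6g had none in control, and the globin genes Hba-a1 and Hbb-bs had none with D-2HG. The 7 genes of an RNA quality list summed to 10971 to 15625 CPM with D-2HG and 12122 to 15451 with L-2HG, all below the 18630 to 30715 CPM of the controls, but its members went both ways. The mitochondrial transcripts mt-Nd1, mt-Nd4 and mt-Cytb fell with both compounds, mt-Cytb by 1.91 with D-2HG and by 1.80 with L-2HG on the log2 scale (edgeR adjusted p = 0.00824 and 0.0152). The nuclear-retained transcripts Neat1 (0.90 with D-2HG and 0.97 with L-2HG; edgeR adjusted p = 0.0128 and 0.0152) and Kcnq1ot1 (0.91 and 0.75; edgeR adjusted p = 0.0143 and 0.0383) rose, and for both transcripts all libraries of the compounds were above all controls. Differences of mt-Co1 (-0.09 with D-2HG and -0.43 with L-2HG) and Malat1 (-0.15 and 0.05) did not pass. In such bulk samples fewer cells of a type and less RNA per cell cannot be told apart. The satellite-like predicted genes Gm10800 and Gm10801 took 9.22 ± 6.95% of counts with D-2HG and 13.0 ± 9.90% with L-2HG, against 2.56 ± 2.43% in control (SD, n = 3). Exact permutation tests, two-sided, gave p = 0.2 for D-2HG and 0.1 for L-2HG, and 0.1 is the smallest that 3 against 3 libraries can give. Sensory receptor genes, which T cells do not use, summed to 1040 ± 220.4 CPM with D-2HG and 2038 ± 1164 CPM with L-2HG, against 478 ± 335 CPM in control (1915 genes, per all counts; exact permutation p = 0.2 and 0.1). The part of these library differences in the results was not tested other than by the alternatives given with each result.

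Per kilobase of exon, Fam162a had the highest level of the 10 genes in each group, with 213 ± 21.2 CPM per kb with D-2HG, 222 ± 22.5 with L-2HG and 335 ± 79.2 in control (SD, n = 3). In control P4ha1 followed at 25.3 ± 3.70, then Hif1a at 20.1 ± 8.36, Vhl at 13.1 ± 2.84, Egln2 at 12.2 ± 5.06 and Hif1an at 6.45 ± 1.16 CPM per kb. Egln1 at 3.54 ± 0.335, Bnip3 at 2.98 ± 0.603, Arnt at 2.37 ± 0.865 and Egln3 at 1.35 ± 0.405 CPM per kb were lowest. Neighbours in that control order overlapped in range, except Fam162a with P4ha1 and Hif1an with Egln1. With D-2HG Hif1a stood second at 36.1 ± 0.932 CPM per kb, with no overlap with P4ha1 at 25.7 ± 3.07, and Arnt stood above Bnip3 and Egln1 at 4.98 ± 0.589. With L-2HG Hif1a was also second at 31.0 ± 11.3 CPM per kb and overlapped P4ha1 at 22.7 ± 2.36. Among the 3 HIF prolyl hydroxylases, Egln2 had the highest level per kb in each group and Egln3 the lowest mean, though with L-2HG the ranges of Egln1 and Egln3 overlapped. These levels assume that reads fall over the whole length of the exons.

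**Figure D1:**
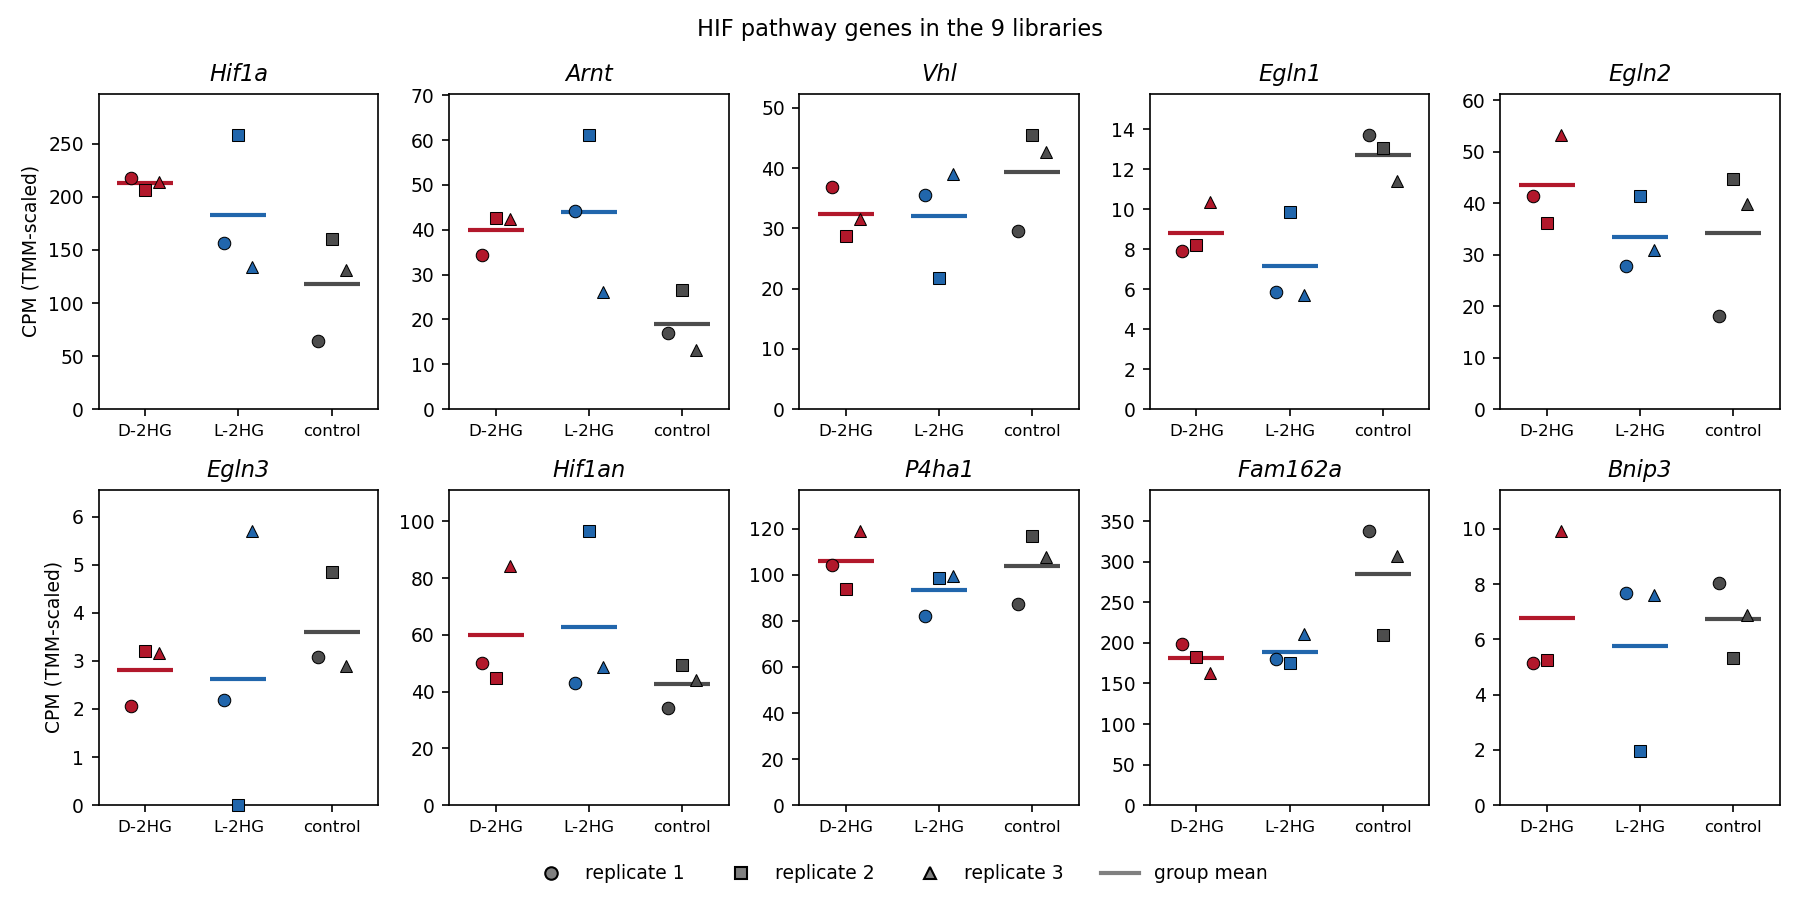
CPM (TMM-scaled) of each of the 10 genes in the 9 libraries; symbols are replicates, bars are group means, and each panel has its own axis from 0. Arnt and Hif1a lie above all controls in the 3 D-2HG libraries, Fam162a and Egln1 lie below them, and Egln3 stays at or under 5.71 CPM in all libraries.

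The first comparison asked how these transcripts differed in cells activated with D-2HG. Both HIF subunit genes were higher and the HIF target Fam162a was lower, while the hydroxylase genes, Vhl, P4ha1 and Bnip3 did not pass the test. Of the 9 tested genes, 3 passed (edgeR quasi-likelihood F test, Benjamini-Hochberg adjusted p under 0.05 over 10235 genes), 2 higher and 1 lower. Over all tested genes, 22.3% passed, 11.8% higher and 10.5% lower. At an unadjusted p under 0.05 it was 3 of the 9 genes, against 38.7% of all tested genes. The median log2 fold change of the 9 genes was 0.03, against 0.04 over all tested genes. The ranges of 4 of the 10 genes did not overlap those of control, as for 40% of all tested genes.

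Arnt (ENSMUSG00000015522, chromosome 3, 95434388 to 95497240, plus strand, mm10) encodes the partner that HIF alpha subunits and the aryl hydrocarbon receptor need to bind DNA. Its level was 34.4, 42.7 and 42.4 CPM in the D-2HG libraries, against 17.1, 26.7 and 13.2 CPM in the controls. All 3 D-2HG libraries were above all controls, and the highest control was replicate 2. The log2 fold change was 1.12 ± 0.29 (SE; 95% interval 0.51 to 1.73; 2.17-fold; edgeR adjusted p = 0.0144). The call was lost without control replicate 1 (1.07, edgeR adjusted p = 0.0684), control replicate 3 (0.89, 0.103) or D-2HG replicate 3 (edgeR adjusted p = 0.0546). It was also lost with the satellite share as a covariate, where the log2 difference was 0.66 (edgeR adjusted p = 0.385).

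Hif1a (ENSMUSG00000021109, chromosome 12, 73901375 to 73947530, plus strand) encodes the alpha subunit that oxygen controls. Its level was 218, 207 and 214 CPM with D-2HG, against 63.9, 159.9 and 131 CPM in control. The D-2HG libraries lay close together and above all controls, and the controls were spread widely, with replicate 1 lowest. The log2 fold change was 0.85 ± 0.28 (SE; 95% interval 0.26 to 1.44; 1.81-fold; edgeR adjusted p = 0.0382). Leaving out control replicate 1 lowered it to 0.55 (edgeR adjusted p = 0.159), and the call was also lost without control replicate 3 (edgeR adjusted p = 0.0928) or D-2HG replicates 1, 2 or 3 (edgeR adjusted p = 0.0953, 0.0777 and 0.101). With the satellite share as a covariate the difference was 0.47 (edgeR adjusted p = 0.557), and without a count filter it was 0.74 (edgeR adjusted p = 0.100). The antisense gene Gm15283 overlaps Hif1a exons and had 4 to 11 counts in a library, against 131 to 906 for Hif1a. The predicted gene Gm49321 overlaps Hif1a exons on the same strand, and no counts under that symbol were found. No strand setting of the counting is given in the sources used here, so reads of such overlapping genes cannot be told apart.

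Fam162a (ENSMUSG00000003955, chromosome 16, 36043761 to 36071594, minus strand) encodes a mitochondrial protein that HIF-1 induces in low oxygen and that has been tied to cell death. Its level was 199, 182 and 163 CPM with D-2HG, against 338, 209 and 307 CPM in control. All D-2HG libraries were below all controls, and control replicate 2 was nearest to them. The log2 fold change was -0.66 ± 0.20 (SE; 95% interval -1.08 to -0.24; edgeR adjusted p = 0.0281). The call was lost without control replicates 1 or 3 (edgeR adjusted p = 0.131 and 0.127) or D-2HG replicates 1, 2 or 3 (0.0686, 0.0835 and 0.122), and with the satellite share as a covariate (-0.32, edgeR adjusted p = 0.604). It was also lost with library totals (edgeR adjusted p = 0.0751), without a count filter (0.0598) and with background reads subtracted (0.0506). The antisense gene Wdr5b overlaps its exons and had 3 to 21 counts in a library, against 89 to 1697 for Fam162a.

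Egln1 (ENSMUSG00000031987, chromosome 8, 124908587 to 124949324, minus strand) encodes PHD2, the main HIF prolyl hydroxylase in normal oxygen. Its level was 7.91, 8.22 and 10.4 CPM with D-2HG, 5.85, 9.87 and 5.71 CPM with L-2HG, and 13.7, 13.1 and 11.4 CPM in control. The libraries of both compounds lay below all controls. The log2 difference was -0.53 with D-2HG (95% interval -1.18 to 0.11; edgeR adjusted p = 0.206) and -0.99 with L-2HG (-1.73 to -0.24; edgeR adjusted p = 0.0587), and neither passed the threshold. With L-2HG it passed without control replicate 2 (edgeR adjusted p = 0.0424), with limma-voom (adjusted p = 0.0147) and with DESeq2 size factors (edgeR adjusted p = 0.0342). These levels rest on few reads, 82 counts in the 3 D-2HG libraries, 33 in the L-2HG libraries and 148 in the controls. Reads at the density seen in sensory receptor genes would make up at most 35.3% of the Egln1 counts in any library, 17.2% for Arnt, 2.47% for Hif1a and 0.226% for Fam162a. With such reads subtracted the Egln1 differences were -0.54 with D-2HG and -1.09 with L-2HG (edgeR adjusted p = 0.279 and 0.0917).

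Egln2 (ENSMUSG00000058709, chromosome 7, 27158658 to 27166802, minus strand) encodes PHD1. Its level was 41.3, 36.1 and 53.3 CPM with D-2HG, 27.8, 41.5 and 30.9 CPM with L-2HG, and 18.0, 44.6 and 39.8 CPM in control. The groups overlapped, and control replicate 1 was the lowest of all libraries. The log2 difference was 0.36 with D-2HG (95% interval -0.23 to 0.95; edgeR adjusted p = 0.355) and -0.08 with L-2HG (-0.72 to 0.55; edgeR adjusted p = 0.866). Egln3 (ENSMUSG00000035105, chromosome 12, 54178981 to 54203860, minus strand) encodes PHD3, itself a known HIF target in many tissues. It had 2.06, 3.20 and 3.16 CPM with D-2HG, 2.19, 0 and 5.71 CPM with L-2HG, and 3.08, 4.85 and 2.90 CPM in control. The 0 stands for no read among the 562627 counts of L-2HG replicate 2, which allows up to 5.92 CPM (3 counts; counting error only). Egln3 was thus near the limit of detection in each group, and a difference between groups was not detectable at this depth. Without the filter its log2 difference was -0.42 with D-2HG (95% interval -1.61 to 0.76) and -0.34 with L-2HG (-1.61 to 0.93).

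Hif1an (ENSMUSG00000036450, chromosome 19, 44562850 to 44576274, plus strand) encodes FIH, which hydroxylates an asparagine of the alpha subunit and so blocks the binding of the coactivators p300 and CBP. It had 50.2, 45.0 and 84.4 CPM with D-2HG, 43.1, 96.7 and 48.5 CPM with L-2HG, and 34.3, 49.4 and 44.2 CPM in control. One library of each compound, D-2HG replicate 3 and L-2HG replicate 2, stood above the rest, and these also had the highest satellite share of their groups, 17.0% and 24.4%. The log2 difference was 0.48 with D-2HG (95% interval -0.11 to 1.08; edgeR adjusted p = 0.211) and 0.45 with L-2HG (-0.17 to 1.08; edgeR adjusted p = 0.277). With the satellite share as a covariate both turned negative, -0.22 and -0.39 (edgeR adjusted p = 0.811 and 0.805). Vhl (ENSMUSG00000033933, chromosome 6, 113623959 to 113631633, plus strand) encodes the subunit of the ubiquitin ligase that recognises hydroxylated HIF. It had 36.8, 28.8 and 31.6 CPM with D-2HG, 35.5, 21.7 and 39.0 CPM with L-2HG, and 29.6, 45.6 and 42.7 CPM in control. The groups overlapped, with a log2 difference of -0.27 with D-2HG (95% interval -0.78 to 0.23) and -0.20 with L-2HG (-0.73 to 0.32; edgeR adjusted p = 0.410 and 0.580).

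P4ha1 (ENSMUSG00000019916, chromosome 10, 59323296 to 59373304, plus strand) encodes a catalytic subunit of collagen prolyl 4-hydroxylase, an enzyme of the same 2-oxoglutarate-dependent class that acts on collagen and not on HIF, and the gene is a HIF target. It had 104, 94.1 and 119 CPM with D-2HG, 82.3, 98.7 and 99.4 CPM with L-2HG, and 87.1, 117 and 108 CPM in control. Its 3 groups overlapped and it had the smallest standard error of the 9 tested genes with D-2HG (0.20), and the 95% interval of the log2 difference was -0.38 to 0.44 with D-2HG and -0.58 to 0.26 with L-2HG (edgeR adjusted p = 0.932 and 0.590). Bnip3 (ENSMUSG00000078566, chromosome 7, 138890836 to 138909519, minus strand) encodes a mitochondrial protein of the mitophagy pathway and is a HIF target in many cell types. It had 5.16, 5.25 and 9.93 CPM with D-2HG, 7.68, 1.97 and 7.61 CPM with L-2HG, and 8.05, 5.33 and 6.88 CPM in control. The groups overlapped, and with 60, 38 and 83 counts over the 3 libraries of each group the intervals were wide, -0.90 to 0.78 with D-2HG and -0.94 to 0.88 with L-2HG (edgeR adjusted p = 0.924 and 0.968).

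The next comparison set cells activated with L-2HG against the same controls. Arnt was higher and was the 1 gene of the 9 tested that passed, while 17.7% of all tested genes passed, 9.41% higher and 8.3% lower. At an unadjusted p under 0.05 it was 3 of the 9 genes, against 36.8% of all tested genes. The median log2 fold change of the 9 genes was -0.08, against 0.05 over all tested genes. Arnt had 44.2, 61.2 and 26.2 CPM with L-2HG, against 17.1, 26.7 and 13.2 CPM in control. L-2HG replicate 3 lay just below control replicate 2, so that the ranges overlapped. The log2 fold change was 1.17 ± 0.31 (SE; 95% interval 0.53 to 1.81; edgeR adjusted p = 0.0201). The call did not survive leaving out control replicate 1 (edgeR adjusted p = 0.0830), control replicate 3 (0.117), L-2HG replicate 1 (0.0840) or L-2HG replicate 2 (0.0550). It was also lost in a fit of only these groups (edgeR adjusted p = 0.0545), without a count filter (0.0509) and with the satellite share as a covariate (0.58, edgeR adjusted p = 0.710).

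Fam162a had 179.9, 176 and 211 CPM with L-2HG, against 338, 209 and 307 CPM in control. Its L-2HG replicate 3 was just above control replicate 2, and the log2 difference of -0.59 (95% interval -1.02 to -0.16) did not pass (edgeR adjusted p = 0.0505). It passed without control replicate 2 (-0.80, edgeR adjusted p = 0.00191) or L-2HG replicate 3 (edgeR adjusted p = 0.0330), and in 6 of 12 alternatives that leave out no library, among them DESeq2 (-0.72, adjusted p = 0.0125) and limma-voom (-0.70, adjusted p = 0.00041). Hif1a had 156, 259 and 134 CPM with L-2HG, a log2 difference of 0.60 (95% interval -0.0044 to 1.20; edgeR adjusted p = 0.138). Its highest library was L-2HG replicate 2, the one of lowest depth, and the other L-2HG libraries lay within the range of the controls. Without that library the difference was 0.29 (edgeR adjusted p = 0.480), without control replicate 1 it was 0.27 (edgeR adjusted p = 0.486), and without control replicate 2 it was 0.81 and passed (edgeR adjusted p = 0.0409). The ranges of Egln1 did not overlap those of control, the 1 such gene of the 10, against 31.2% of all tested genes.

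The compounds were compared with each other at the same dose and time, as 1 pair of mirror-image forms. By edgeR 0 of the 9 tested genes differed past the threshold, against 0.303% of all tested genes (0.0489% higher and 0.254% lower), and 0 did so by DESeq2 and by limma-voom. At an unadjusted p under 0.05 it was 0 as well, against 6.97% of all tested genes, and the ranges of 0 of the 10 genes were apart, against 15.9%. The D-2HG over L-2HG log2 difference was 0.26 for Hif1a (95% interval -0.34 to 0.85), -0.05 for Arnt (-0.66 to 0.57) and -0.06 for Fam162a (-0.49 to 0.36). Among the enzymes it was 0.45 for Egln1 (-0.32 to 1.22), 0.44 for Egln2 (-0.19 to 1.08) and 0.03 for Hif1an (-0.59 to 0.65). It was -0.07 for Vhl (-0.60 to 0.46), 0.19 for P4ha1 (-0.24 to 0.61) and -0.03 for Bnip3 (-0.94 to 0.88). These intervals reach as far as 0.85 for Hif1a and 1.22 for Egln1, so they do not show that the forms act alike on these genes. The comparisons of each compound with control share the same control libraries.

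**Figure D2:**
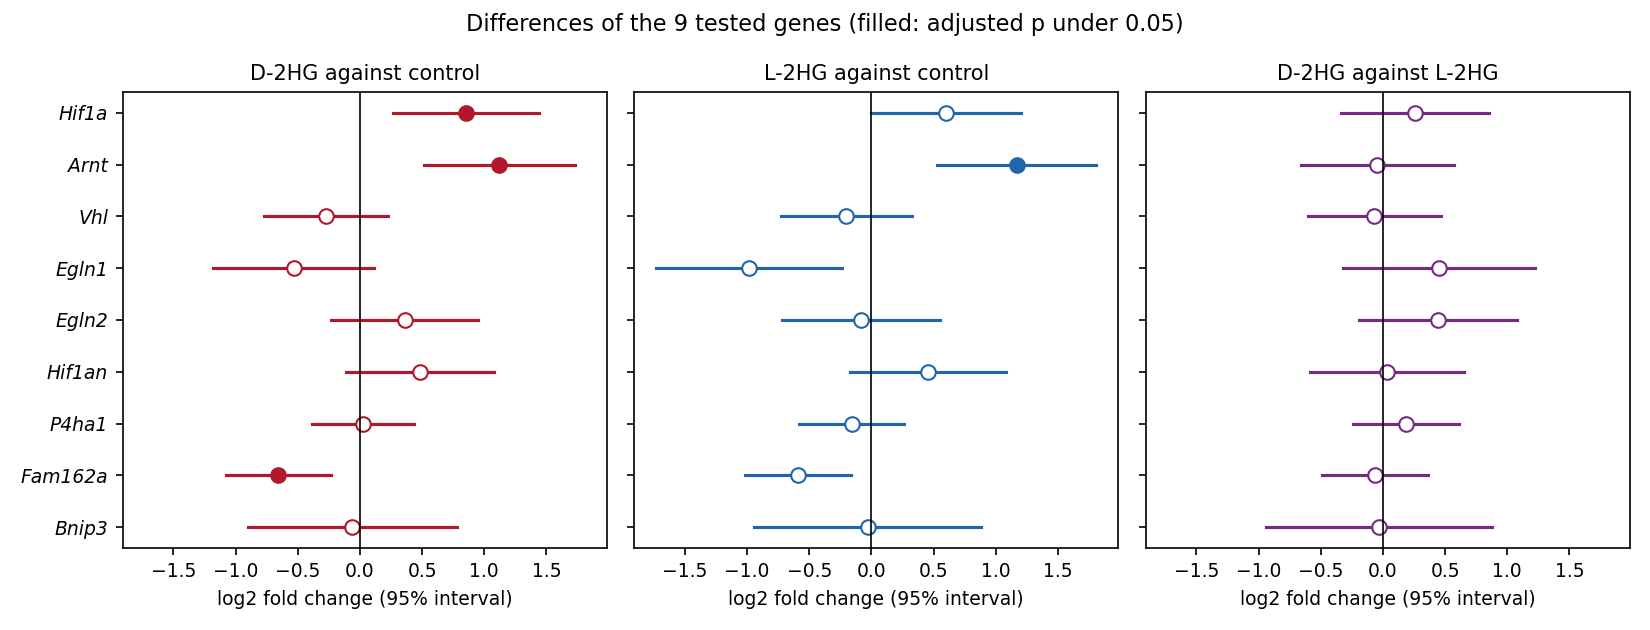
Log2 fold change (points) and its 95% interval (lines) of the 9 tested genes in the 3 comparisons; filled points passed at edgeR adjusted p under 0.05. Arnt at 1.12 and 1.17 lies right of 0 with D-2HG and L-2HG, Fam162a lies left of it, and the intervals between the compounds all include 0.

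The 3 genes called with D-2HG differed in the same direction in 1 control. Control replicate 2 had the highest satellite share of the controls, 5.35%, and differed from the mean of controls 1 and 3 by 0.80 for Hif1a, 0.80 for Arnt and -0.62 for Fam162a on the log2 scale. The same difference was 0.06 for Egln1, 0.72 for Egln2, 0.35 for Vhl, 0.34 for Hif1an, 0.27 for P4ha1 and -0.43 for Bnip3. For Hif1a and Egln2 it rests mostly on a low control replicate 1, and control replicate 2 was near control replicate 3. Hif1a had 159.9 CPM in control replicate 2 and 131 CPM in control replicate 3, against 63.9 CPM in control replicate 1. Egln2 had 44.6, 39.8 and 18.0 CPM in the same order. Leaving out control replicate 2 moved the D-2HG differences away from 0, to 1.39 for Arnt, 1.10 for Hif1a and -0.85 for Fam162a (edgeR adjusted p = 0.000933, 0.00830 and 0.000886). Differences also followed the length of the transcript. Among the 1918 tested genes with 8 kb or more of exon the median log2 difference was 0.50 with D-2HG and 0.56 with L-2HG, and 0.39 for control replicate 2 over controls 1 and 3. Among the 477 genes under 1 kb these medians were -0.45 with D-2HG, -0.35 with L-2HG and -0.45 for control replicate 2. They were lowest at 1 to 2 kb, at -0.52, -0.48 and -0.52.

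Arnt has 8007 bases of exon and lies only just past the lower edge of the longest class, 8 kb or more. In that class 24.8% of genes were called higher with D-2HG. Fam162a has 850 bases and belongs to the shortest class, in which 17.4% were called lower, and Hif1a has 5896 bases, in a class of 4 to 8 kb with a median of 0.20 and 14.7% called higher. With the length trend removed, an alternative chosen after seeing the data, Arnt kept its call with D-2HG (0.78, edgeR adjusted p = 0.0393) and with L-2HG (0.82, edgeR adjusted p = 0.0492). Hif1a did not keep it (0.65, edgeR adjusted p = 0.0813), nor did Fam162a (-0.19, edgeR adjusted p = 0.425). Egln1, of 3594 bases, had differences of -0.45 with D-2HG and -0.90 with L-2HG in that fit (edgeR adjusted p = 0.310 and 0.0922).

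**Figure D3:**
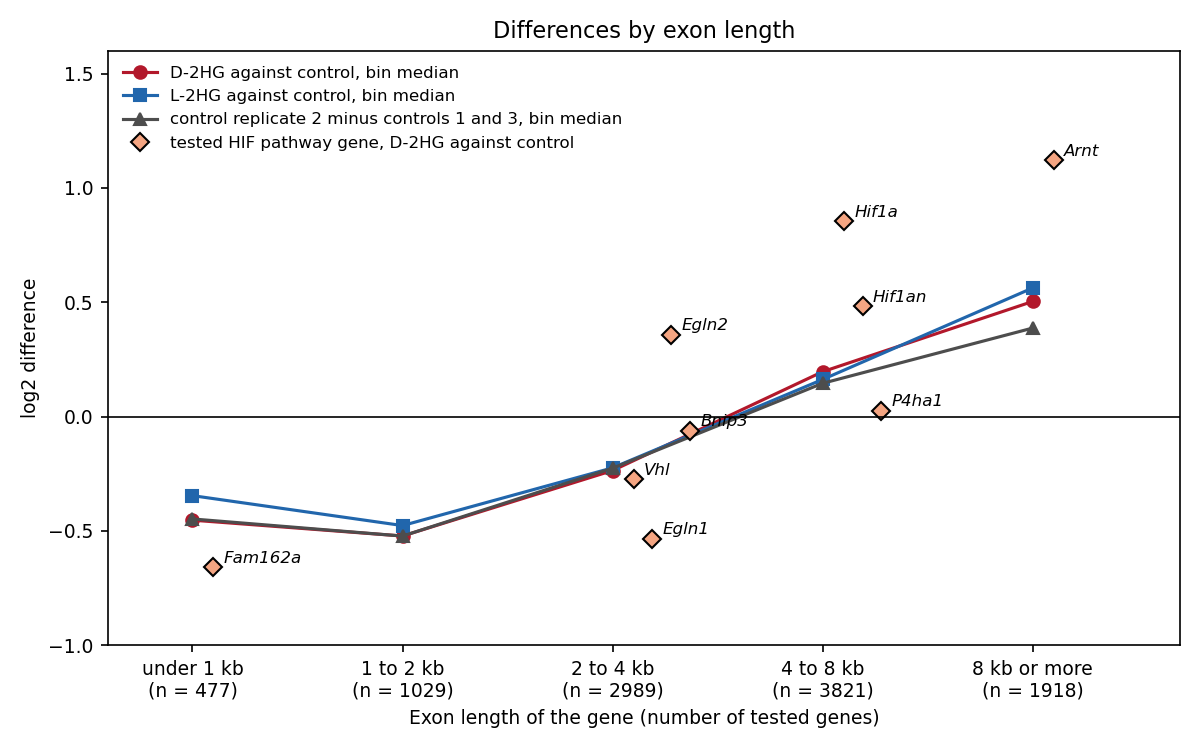
Median log2 difference of all tested genes by exon length (lines) for D-2HG and L-2HG against control and for control replicate 2 against controls 1 and 3, with the 9 tested genes of the pathway in D-2HG against control (diamonds, spread sideways within a class only for legibility). The lines start at -0.45, -0.35 and -0.45 under 1 kb and dip to -0.52, -0.48 and -0.52 at 1 to 2 kb. They then climb to 0.50, 0.56 and 0.39 at 8 kb or more, and Arnt and Fam162a lie at the opposite ends.

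The genes whose pattern over the 9 libraries was nearest to each of these 3 were found by the root mean square difference of centred log2 CPM. For Arnt they were Pnpla8 (0.12), a phospholipase gene, Hyou1 (0.12), a chaperone gene of the endoplasmic reticulum, and Eif5a2 (0.12), a translation factor gene. For Fam162a they were Mrpl23 (0.07), which encodes a mitochondrial ribosome protein, Srp14 (0.07), which encodes a part of the signal recognition particle, and 1810058I24Rik (0.07). For Hif1a they were Incenp (0.12), a gene of chromosome segregation, Cdc25a (0.17), a cell cycle phosphatase gene, and Tent2 (0.18), an RNA tail polymerase gene.

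The other genes of the pathway were taken from 5 lists. Among relatives and partners of the HIF subunits, 3 of 8 genes were tested, and Epas1, Hif3a, Arnt2, Ahr and Cited2 were too low. Arntl, which encodes the clock protein BMAL1 of the same structural family as Arnt, had 31.7, 32.7 and 31.6 CPM with D-2HG and 29.2, 39.5 and 33.3 CPM with L-2HG, against 17.1, 18.9 and 13.8 CPM in control. All libraries of both compounds were above all controls, with log2 fold changes of 0.97 with D-2HG and 1.01 with L-2HG (edgeR adjusted p = 0.0107 and 0.0155). Ep300, which encodes the coactivator p300, rose with L-2HG (0.78, edgeR adjusted p = 0.0260), and its D-2HG difference of 0.59 missed the threshold narrowly (edgeR adjusted p = 0.0502). So 1 of 3 rose with D-2HG and 2 of 3 with L-2HG, against 11.8% and 9.41% of all tested genes, and the list medians were 0.59 and 0.78, against 0.04 and 0.05 over all tested genes. With the length trend removed the medians were 0.06 with D-2HG and 0.17 with L-2HG, and Ep300 lost its call (0.17, edgeR adjusted p = 0.616).

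All 8 genes of the VHL ligase and HIF turnover list were tested, 1 fell with each compound and none rose, while 10.5% of all tested genes fell with D-2HG and 8.3% with L-2HG. That gene was Rbx1, the RING subunit of cullin ligases, with 149 ± 5.74 CPM with D-2HG and 153 ± 29.5 CPM with L-2HG, against 254 ± 71.4 CPM in control (SD, n = 3; log2 fold change -0.78 and -0.72; edgeR adjusted p = 0.0193 and 0.0340). The elongin genes Elob and Eloc, adaptors of VHL, differed by -0.60 and -0.58 with D-2HG without passing (edgeR adjusted p = 0.0772 and 0.0534), and the scaffold gene Cul2 by 0.30 (0.396). List medians were -0.36 with D-2HG and -0.46 with L-2HG, and -0.06 and -0.08 with the length trend removed. Of 7 tested prolyl and lysyl hydroxylase relatives of 11, Ogfod1, which encodes a prolyl hydroxylase of a ribosomal protein, rose with D-2HG (0.65, edgeR adjusted p = 0.0390; past the threshold in 10 of 21 alternatives), and none passed with L-2HG, where Ogfod1 differed by 0.60 (edgeR adjusted p = 0.0714). List medians there were -0.20 with D-2HG and -0.14 with L-2HG.

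Of 20 tested HIF targets outside glycolysis, of 25 in the list, 4 rose and 1 fell with D-2HG, and 2 rose and 1 fell with L-2HG. Over all tested genes 11.8% rose and 10.5% fell with D-2HG, and 9.41% rose and 8.3% fell with L-2HG, so that the L-2HG counts are near the shares of all genes. Those too low for the test were Vegfa, Adm, Car9, Ak4 and Vldlr, of which Vegfa, Adm and Car9 are much used markers of hypoxia in other cell types. Hmox1, which encodes heme oxygenase and is also a target of the oxidative stress factor NRF2, had 32.3, 36.5 and 28.0 CPM with D-2HG and 4.75, 1.97 and 6.18 CPM with L-2HG, against 8.05, 2.91 and 4.16 CPM in control. The D-2HG libraries stood above all others, and the L-2HG libraries overlapped the controls. Hmox1 rose with D-2HG against control (2.62, edgeR adjusted p = 6.32e-05) and was the 1 gene of the 5 lists that differed between the compounds (D-2HG over L-2HG 6.49-fold, 95% interval 1.91 to 3.49 on the log2 scale; edgeR adjusted p = 0.00172). Both Hmox1 calls held in each of the 20 alternatives that kept the gene.

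Kdm3a, a histone demethylase gene that HIF induces, had 48.9, 49.3 and 46.5 CPM with D-2HG and 49.4, 47.4 and 32.3 CPM with L-2HG, against 25.6, 25.2 and 19.4 CPM in control. All libraries of both compounds were above all controls (log2 fold change 1.06 and 0.87; edgeR adjusted p = 0.00627 and 0.0233). Ero1l, an oxidase gene of the endoplasmic reticulum, rose with D-2HG to 81.6 ± 15.7 CPM, against 36.7 ± 14.4 CPM in control (edgeR adjusted p = 0.0104), and its L-2HG difference of 0.54 did not pass (0.184). Mif, the gene of a cytokine, fell to 698 ± 41.6 CPM with D-2HG and 752 ± 205 CPM with L-2HG, against 1413 ± 398 CPM in control (edgeR adjusted p = 0.00907 and 0.0201). Ddit4, a gene that restrains mTOR signalling, completed the 4 that rose with D-2HG, and Zfp292, a zinc finger gene, the 2 that rose with L-2HG (1.02, edgeR adjusted p = 0.0472). Ddit4 is named after its values were seen, and it had 4.47, 4.34 and 9.03 CPM with D-2HG, against 0.237, 0.485 and 2.71 CPM in control. The L-2HG difference of Ddit4 was 1.36 (edgeR adjusted p = 0.209) and the D-2HG difference of Zfp292 was 0.76 (edgeR adjusted p = 0.0950). List medians were 0.30 with each compound, against 0.04 with D-2HG and 0.05 with L-2HG over all tested genes.

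Glycolytic HIF targets went both ways. Of 16 tested genes of 17, 4 rose and 3 fell with D-2HG, and 3 rose and 2 fell with L-2HG. All tested genes also went both ways in nearly equal parts (11.8% and 10.5% with D-2HG, 9.41% and 8.3% with L-2HG). Slc2a3, which encodes the glucose transporter GLUT3, had 34.1 ± 4.49 CPM with D-2HG and 37.1 ± 4.35 CPM with L-2HG, against 15.1 ± 5.01 CPM in control (SD, n = 3). All libraries of both compounds were above all controls (log2 fold change 1.23 and 1.36; edgeR adjusted p = 0.00522 and 0.00799). Pfkfb3, which encodes the enzyme that makes the activator of phosphofructokinase, rose to 113 ± 10.3 CPM with D-2HG and 99.2 ± 16.2 CPM with L-2HG, against 57.3 ± 13.5 CPM in control (edgeR adjusted p = 0.00598 and 0.0251). The glycolytic enzyme gene Tpi1 fell with D-2HG (-1.27, edgeR adjusted p = 0.00312) and Aldoa fell with L-2HG (-0.77, edgeR adjusted p = 0.0302). Tpi1 with L-2HG (-0.65, edgeR adjusted p = 0.0626) and Aldoa with D-2HG (-0.53, edgeR adjusted p = 0.0905) had the same sign without passing, and neither gene differed past the threshold between the compounds (edgeR adjusted p = 0.570 and 0.898). Pfkfb4 rose with both compounds at a low level (edgeR adjusted p = 0.0159 and 0.0173). It had 8.60, 6.85 and 4.51 CPM with D-2HG and 8.04, 1.97 and 9.99 CPM with L-2HG. Controls had 1.89, 2.42 and 1.27 CPM, and L-2HG replicate 2 lay within their range. Hk2 rose with D-2HG (0.64, edgeR adjusted p = 0.0370), and Pgk1 (-0.61, edgeR adjusted p = 0.0487) and Ldha (-0.88, edgeR adjusted p = 0.0146) fell with it. Slc2a1, which encodes the transporter GLUT1, fell with L-2HG (-0.72, edgeR adjusted p = 0.0365). Hk2, Pgk1 and Slc2a1 are named after their values were seen, and their alternatives are not given here. Pgk1 passed with D-2HG only narrowly. With the other compound the differences were 0.37 for Hk2, -0.64 for Pgk1 and -0.57 for Ldha with L-2HG and -0.56 for Slc2a1 with D-2HG (edgeR adjusted p = 0.220, 0.0513, 0.0801 and 0.0610). So the transporter genes Slc2a3 and Slc2a1 went opposite ways with L-2HG, at 1.36 and -0.72. List medians were -0.18 with D-2HG and -0.34 with L-2HG, against 0.04 and 0.05 over all tested genes.

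Of the 11 genes that the naming rule took from these lists with D-2HG, Hmox1, Slc2a3 and Tpi1 kept their calls with each library left out in turn. Control replicates 1 and 3 cost most of the others their calls. Without control replicate 3, Arntl, Rbx1, Ogfod1, Kdm3a, Mif, Pfkfb3 and Ldha lost theirs, and without control replicate 1, Rbx1, Ogfod1, Mif, Ero1l and Ldha did. Rbx1 and Ogfod1 lost them without any 1 D-2HG replicate, Ldha without D-2HG replicates 1 or 3, Mif and Ero1l without D-2HG replicate 3 and Ogfod1 without L-2HG replicate 1. Of the 10 such genes with L-2HG, all lost their calls without control replicate 3 and all but Slc2a3 without control replicate 1. Kdm3a, Rbx1, Pfkfb3, Ep300, Zfp292 and Aldoa also lost them without L-2HG replicate 1 or without L-2HG replicate 2, Pfkfb4 without L-2HG replicate 1, Mif without L-2HG replicate 2, Ep300 without L-2HG replicate 3, and Rbx1 and Zfp292 without D-2HG replicate 1. With the satellite share as a covariate Hmox1 with D-2HG was the 1 named list gene that kept a call against control. With the length trend removed, counts among other HIF targets were 4 up and 2 down with D-2HG and 0 up and 1 down with L-2HG, and among glycolytic targets 3 up and 2 down with D-2HG and 2 up and 1 down with L-2HG. Among the hydroxylase relatives they were 0 up and 1 down with each compound.

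**Figure D4:**
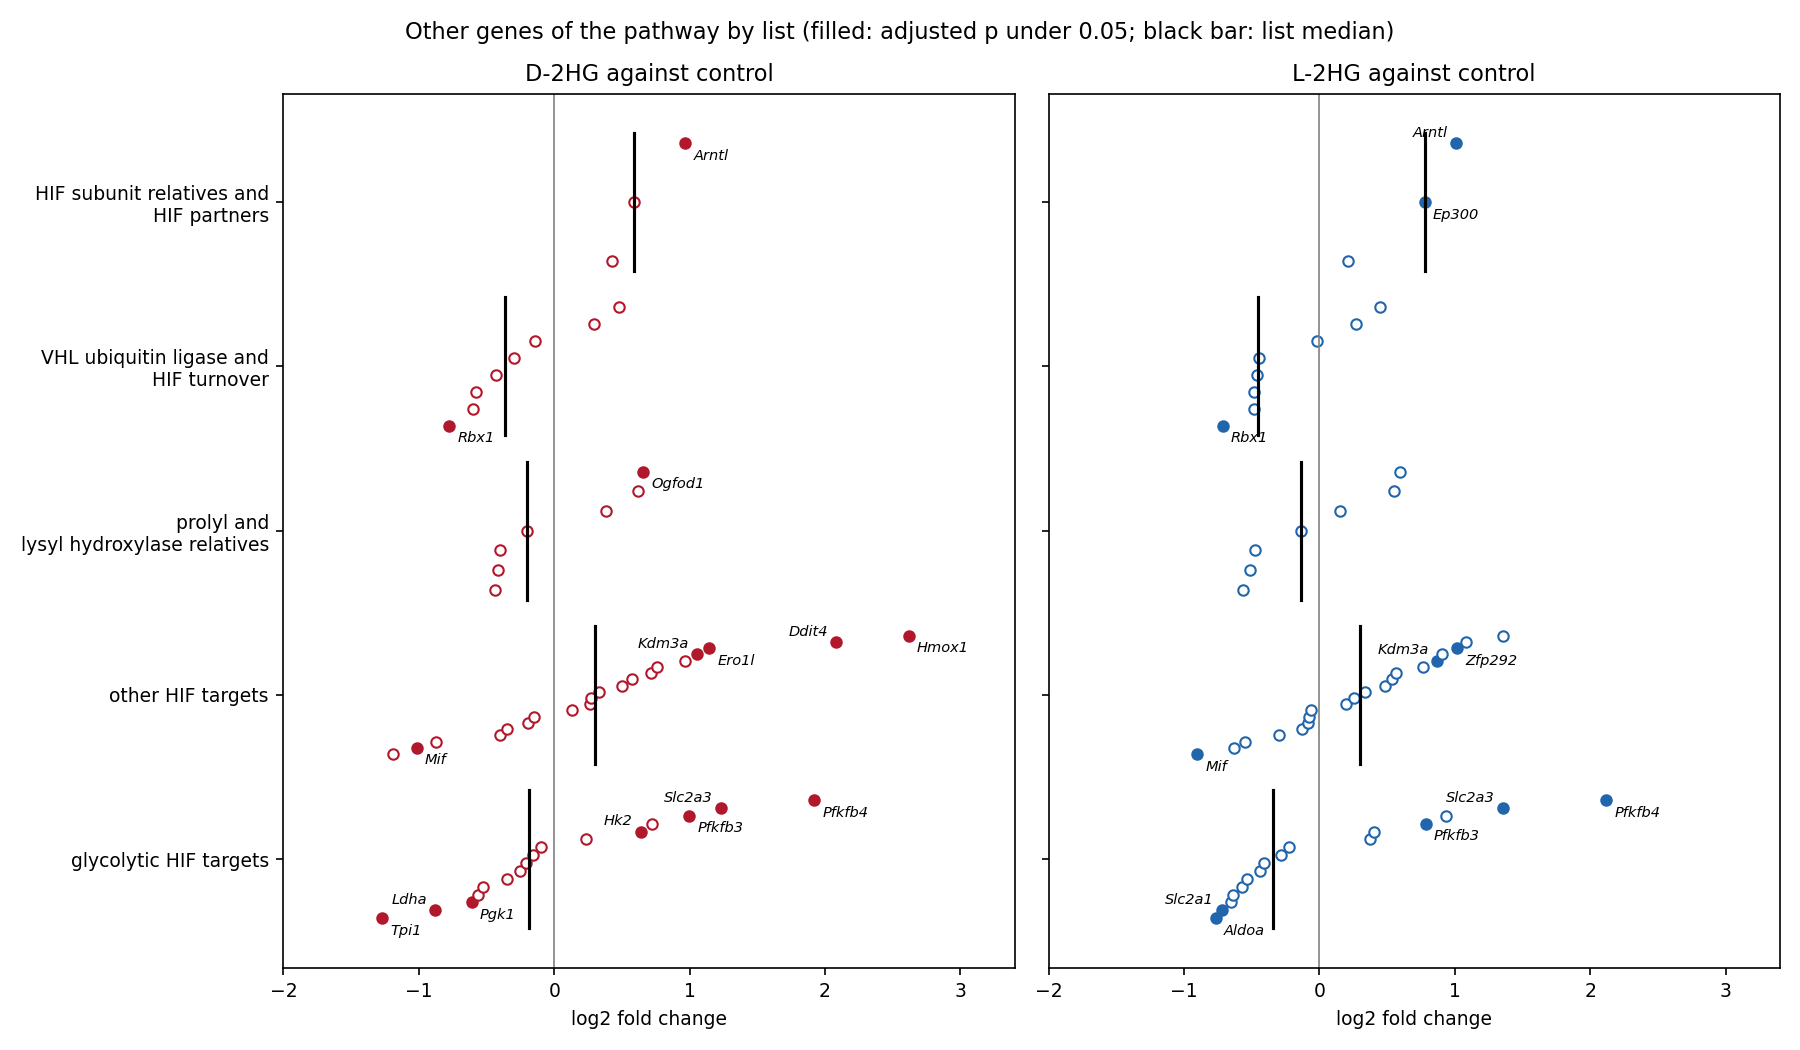
Log2 fold change against control of each tested gene of the 5 lists (points), D-2HG on the left and L-2HG on the right; filled and named points passed at edgeR adjusted p under 0.05, and black bars are list medians. Hmox1 at 2.62 lies far right with D-2HG only, and the glycolytic list holds called genes on both sides of 0.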

How the data were processed

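Polyadenylated RNA of 9 libraries was primed with oligo(dT), the cDNA was amplified by PCR, and libraries were made by transposon fragmentation, per the labels' protocols. The deposited raw counts per gene symbol were made by the authors with STAR 2.7.3a and featureCounts on mm10, per the submitters' processing notes. The annotation and the strand setting are not given in the sources used here. A further deposited table holds normalized signal, the same counts over 1 size factor per library (recomputed values within 6.56e-05 of whole counts), and was used for gene identifiers only. Of 55011 genes 11256 had no count.

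Counts were analysed with edgeR 4.0.16 in R 4.3.3: filterByExpr by group (minimum count 10, 10235 genes kept), TMM scaling, 1 mean per group over all 9 libraries (6 residual degrees of freedom), robust quasi-likelihood F tests, Benjamini-Hochberg over all tested genes, threshold 0.05. Alternatives were DESeq2 1.42.0, limma 3.58.1 (voom with sample quality weights), other scalings and filters, a replicate block, the log2 share of Gm10800 and Gm10801 (satellite share) as covariate or these genes removed, and each library left out. Chosen after seeing the data were subtraction of background reads (density in 1915 sensory receptor genes, without the 5% densest) and removal of each library's trend on exon length. That trend was a smoothed curve of log2 CPM, centred per gene, on log2 exon length, and it entered the fit as an offset. Positions and exon lengths came from GENCODE M21, and 215 symbols had no position there. Ero1l is the symbol in the table for Ero1a. Promoter windows came from RefSeq. The genes, the lists and the markers were chosen with earlier results of these data known. All 10 genes are named. Of each list at most 4 genes past the threshold with the smallest adjusted p are named per comparison, and of each of the 3 genes with the smallest adjusted p in D-2HG against control the 3 nearest in pattern. Libraries within groups varied beyond counting error (chi-square per degree of freedom 5.83 to 42.4).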

Additional observations from a re-analysis of the deposited data

How the results depend on the processing

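A replicate block was not part of the reported fits. The titles share replicate numbers, but the deviations of same-numbered libraries from their group means correlated at -0.17 to 0.28, so the numbers were not taken as pairs. With the number as a replicate block, 2 of the pathway genes passed with L-2HG, Arnt and Fam162a (-0.58, edgeR adjusted p = 0.0418).

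Arnt passed with D-2HG in 11 of 12 alternatives other than leaving out a library, Hif1a in 9 and Fam162a in 7, and with leave-one-out fits in 6, 4 and 4 of 9. The number of pathway genes past the threshold with D-2HG, 3 as reported, was 1 without a count filter, 0 with the satellite share as a covariate and 1 with the length trend removed, and 0 to 3 over leave-one-out fits. With L-2HG, 1 as reported, it was 2 by DESeq2, 3 by limma-voom, 3 with DESeq2 size factors, 0 in a fit of only the groups compared, 2 with the satellite genes removed, 0 with the satellite covariate, and 0 to 4 over leave-one-out fits. Between the compounds it was 0 throughout. All genes past the threshold with D-2HG, 2278 as reported, were 5617 by limma-voom, 1341 without a filter, 96 with the satellite covariate and 384 to 4257 over leave-one-out fits. With L-2HG, 1812 as reported, they were 5180 by limma-voom, 1195 at a mean count of at least 50, 427 in a fit of only the groups compared, 8 with the satellite covariate, 681 with background reads subtracted, 1177 with the length trend removed and 65 to 4108 over leave-one-out fits. Between the compounds, 31 as reported, they were 49 by DESeq2, 177 by limma-voom, 76 with the satellite covariate, 54 with the length trend removed and 10 to 60 over leave-one-out fits. With library totals the calls were 1127 up and 482 down with D-2HG, against 1205 and 1073 as reported, and 994 up and 285 down with L-2HG, against 963 and 849. With DESeq2 size factors they were 772 up and 1363 down with L-2HG, where the median of all genes moved to -0.07 on the log2 scale, against 0.05 as reported, and 1058 up and 1356 down with D-2HG. The cause of these moves was not tested.

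The differences that changed sign were all short of the threshold. With D-2HG against control they were Bnip3 (library totals 0.014, length trend removed 0.29, leave-one-out -0.41 to 0.10), Egln2 (satellite covariate -0.080), Hif1an (satellite covariate -0.22) and P4ha1 (DESeq2 -0.047, limma-voom -0.032, DESeq2 size factors -0.047, no filter -0.11, satellite covariate -0.19, leave-one-out -0.092 to 0.098). With L-2HG they were Bnip3 (limma-voom 0.058, library totals 0.10, only the groups compared 0.0011, length trend removed 0.29, leave-one-out -0.22 to 0.13), Egln2 (mean count of at least 50 0.020, replicate block 0.0026, background subtracted 0.0057, length trend removed 0.12, leave-one-out -0.42 to 0.083) and Hif1an (satellite covariate -0.39). Between the compounds they were Arnt (DESeq2 size factors 0.0076, no filter 0.079, satellite covariate 0.079, leave-one-out -0.29 to 0.18), Bnip3 (DESeq2 0.065, DESeq2 size factors 0.0026, no filter 0.065, replicate block 0.11, background subtracted 0.024, length trend removed 0.0014, leave-one-out -0.35 to 0.15), Fam162a (no filter 0.079, leave-one-out -0.12 to 0.078), Hif1an (mean count of at least 50 -0.014, leave-one-out -0.27 to 0.38) and Vhl (no filter 0.055, leave-one-out -0.19 to 0.11). With 3 libraries a group and 0 to 63 counts of Egln1, Egln3 or Bnip3 in a library, changes of these low genes were poorly resolved. Leaving out L-2HG replicate 2 leaves 2 libraries in that group, whose spread the fit takes from all groups.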

Other observations

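Egln1 also took a smaller part of the HIF prolyl hydroxylase transcripts with either compound, a measure chosen after its values were seen. Of the summed counts of Egln1, Egln2 and Egln3, Egln1 made up 15.4%, 17.3% and 15.5% in the D-2HG libraries, 16.3%, 19.2% and 13.5% in the L-2HG libraries, and 39.5%, 20.9% and 21.1% in the controls. All libraries of both compounds were below all controls, and control replicate 1 stood far above the other controls. In control replicate 1 Egln2 was low, at 18.0 CPM, against 44.6 and 39.8 CPM in control replicates 2 and 3. Egln1 differed less among these libraries, at 13.7, 13.1 and 11.4 CPM. Group means came to 16.1 ± 1.05% for D-2HG and 16.3 ± 2.87% for L-2HG, against 27.2 ± 10.7% in control (SD, n = 3; two-sided exact permutation p = 0.1 for each compound, the smallest that 3 against 3 libraries can give). The exact Clopper-Pearson 95% intervals of single libraries, which cover counting error only, overlapped between the groups, with 10.0 to 22.3% in D-2HG replicate 1, 6.55 to 39.4% in L-2HG replicate 2 and 14.3 to 29.0% in control replicate 2. The share is a ratio of counts within a library, and the 3 genes have exon lengths of 3594, 2800 and 2662 bases. The part of RNA quality or library composition in this share was not tested.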
